A study of Mus musculus with 7 samples.

Results

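The unfolded protein and heat shock response was described in sorted lung regulatory T (Treg) cells through 34 genes. The genes were taken by symbol from a list of the pathway, with no condition on their values. The list itself was chosen with earlier results of these data known. The genes comprise 21 of the endoplasmic reticulum (ER) stress response and 13 cytosolic and mitochondrial chaperone genes. All 34 were among the 19736 gene symbols measured, and all 34 passed the filter on low values, as did 14582 genes in total.

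The libraries came from 2 groups of Foxp3EGFP+ cells: CCR6+Foxp3EGFP+ Il4raR576 cells, with 3 libraries, and CCR6-Foxp3EGFP+ Il4raR576 cells, with 4. CCR6 is a chemokine receptor whose ligand is CCL20. Foxp3EGFP is a fluorescent reporter of the Treg transcription factor, and Il4raR576 is a variant allele of the gene for the alpha chain of the IL-4 receptor, carried by both groups. The donors were female mice aged 5 to 7 weeks. All of them received 100 µg ovalbumin in 100 µL PBS by intraperitoneal injection, a boost 2 weeks later, and a 1% ovalbumin aerosol for 30 min a day on 3 days beginning on day 29, with lungs taken on day 32. The question the design poses is how CCR6+ Treg cells differ from CCR6- Treg cells of the allergic lung. The labels do not say whether the 2 groups came from the same lungs. No unchallenged or wild-type libraries were analysed here. The labels do not say whether libraries of 1 group came from separate mice or from pools, so each p-value reflects library-to-library spread only, part or all of which may be technical.

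Proteins that enter the ER are folded there by dedicated chaperones and disulfide isomerases, and unfolded protein is sensed by the membrane proteins IRE1 (gene Ern1), PERK (Eif2ak3) and ATF6. These sensors act through the transcription factors XBP1, ATF4 and cleaved ATF6, which raise the transcription of ER chaperones and of genes that dispose of misfolded proteins. In the cytosol, HSF1 plays the corresponding role and drives the genes of the HSP70, HSP90, HSP40 and HSP110 chaperones. T cells are known to engage both arms when they are activated and produce much protein, and heat shock genes are known to respond to tissue dissociation as well.

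The recovered reads ranged between 11607780 and 35182288 in the CCR6+ libraries and between 31083571 and 47261246 in the CCR6- libraries. Ccr6 averaged 5488 ± 2414 normalised counts in CCR6+ cells and 617.5 ± 311.6 in CCR6- cells (SD, n = 3 and 4), and its groups did not overlap. Foxp3 was present in all 7 libraries, at 12206 to 50875 in CCR6+ and 19376 to 39097 in CCR6- libraries. The lowest value was that of CCR6+ replicate 2. In that library 8 Treg and T cell markers summed to 114782. The remaining CCR6+ libraries had 264166 and 303975 and the CCR6- libraries 230999 to 236479. Unlike the remaining libraries, CCR6+ replicate 2 combined the lowest number of reads with the lowest share of genes at 0, which was 2.16%. The other 6 ranged between 6.89% and 29.7%. The summed normalised count of 13 epithelial markers was 81200 in that library, where CCR6+ replicates 3 and 1 had 4049 and 13452 and the CCR6- libraries 2134 to 10304. That of 14 endothelial and stromal markers was 68103, where the remaining CCR6+ libraries had 6467 and 10547 and the CCR6- libraries 5621 to 8752. For 13 macrophage and monocyte markers the sums spanned 10411 to 127236 in CCR6+ and 1486 to 35805 in CCR6- libraries. For 13 B and plasma cell markers, whose source cells are rich in ER chaperones, they spanned 9134 to 21018 in CCR6+ and 7862 to 18274 in CCR6- libraries. Of these, Prdm1 alone had 7872, 3228 and 6120 in CCR6+ and 3985 to 5371 in CCR6- libraries. It made up most of the sum in CCR6+ replicate 3 and in CCR6- replicates 1, 3 and 4. Dendritic cell markers summed to 33100 to 96884 in CCR6+ and 16011 to 21287 in CCR6- libraries, and granulocyte and mast cell markers to 2748 to 3585 in CCR6+ and 1325 to 2510 in CCR6- libraries. Among the former, Itgae alone had 23786, 7477 and 20537 in CCR6+ and 7753 to 10844 in CCR6- libraries. Among the latter, Ccr3 alone had 3073, 628 and 2264 in CCR6+ and 1299 to 2293 in CCR6- libraries. The separation of the groups in these sums therefore leans on Itgae and on Ccr3. Gene by gene, all 13 B and plasma cell markers that passed the filter had a positive difference, CCR6+ minus CCR6-, the median being 1.71 on the log2 scale over all libraries and 0.95 when CCR6+ replicate 2 was left out. The medians with and without that library were 2.25 and 1.37 for macrophage and monocyte, 1.95 and 1.22 for dendritic cell, 2.68 and 1.51 for granulocyte and mast cell, 2.10 and 0.76 for epithelial, and 2.47 and 1.05 for endothelial and stromal markers. The part of these cells in the differences of the stress response genes was not tested. None of these markers was at 0 in all 7 libraries.

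No stress response gene passed the adjusted test between CCR6+ and CCR6- Treg cells. With limma and Benjamini-Hochberg adjustment over all 14582 genes, 0 of 34 members passed 0.05, and 0% of all genes did. At an unadjusted p under 0.05, 2 members passed, Ern1 and Bag3, both higher in CCR6+ cells. That is 5.88% of the members, against 10.6% of all genes. EdgeR called 0 members, against 0.0137% of all genes, and DESeq2 called 0 members, against 4.66% of all genes. The groups did not overlap for the same 2 members, both higher in CCR6+ cells. Over all genes, 7.96% did not overlap with CCR6+ higher and 5.53% with CCR6+ lower, so the members' share with CCR6+ higher, 5.88%, and with CCR6+ lower, 0%, each lay below that of all genes. Differences are given throughout as CCR6+ minus CCR6- of log2(normalised count + 1), a scale that understates the change of low genes. The median difference was -0.03 over the 21 ER genes and -0.30 over the 13 chaperone genes, against 0.10 over all genes. Without CCR6+ replicate 2 these medians were -0.01, -0.13 and 0.04. The ER median turned positive when library totals were equalised (0.06) or values quantile normalised (0.09), and the chaperone median stayed negative under both (-0.22 and -0.30). Over all genes these scalings gave medians of 0.18 and -0.08. Of the ER genes 10 had a positive and 11 a negative difference, whereas of the chaperone genes 2 had a positive and 11 a negative one. Across all genes, 56.9% were positive.

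**Figure D1:**
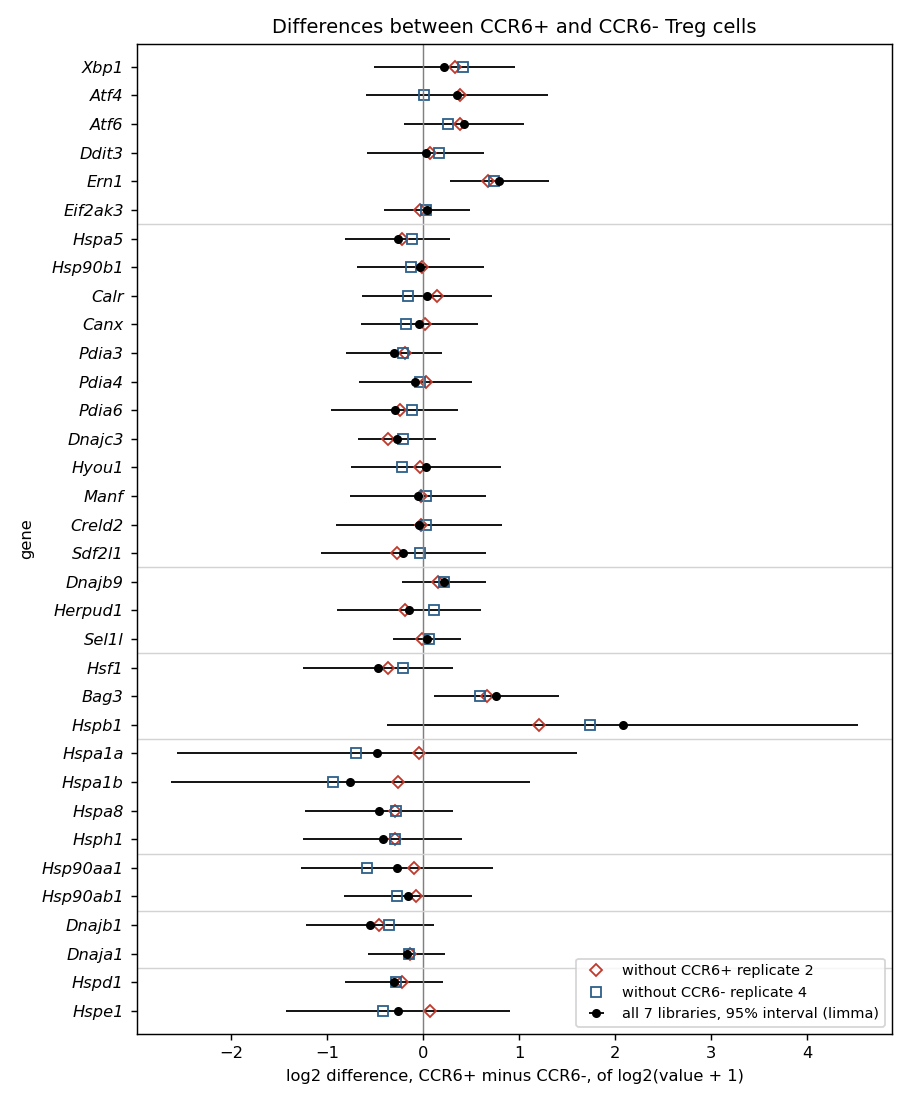
Log2 difference between CCR6+ and CCR6- Treg cells for the 34 genes, ordered by role, with grey lines between roles. Black points and bars are the limma estimate and its 95% interval over 3 CCR6+ and 4 CCR6- libraries, red diamonds the estimate without CCR6+ replicate 2 and blue squares that without CCR6- replicate 4. The intervals of Ern1 and Bag3 lie above 0 before adjustment, and the remaining 32 include 0.

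The genes covered a wide range of levels. The level per kilobase took all annotated exons of a gene as its length. On this scale Pdia3 was the highest member, at a mean of 12212 normalised counts per kb over the 7 libraries, rank 38 of 14145 genes with a length. Hspa5 followed at 10611 per kb (rank 52), Calr at 9504 (rank 60) and Hsp90ab1 at 8517 (rank 80). At the other end stood the sensor gene Ern1 at 57.4 per kb (rank 8902) and Hspb1 at 29.7 per kb (rank 10077). Ddit3 was not ranked, because its symbol has 2 gene identifiers in the annotation. Annotated exons may not all be used in these cells. Members that share sequence with other genes, such as Hspa8 (39.4% in 50-base words, rank 3098), may be ranked too low.

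Among the 6 sensor and transcription factor genes of the ER response, Ern1 had the largest difference. All 6 differences were positive, although Ddit3 turned negative with quantile normalization, edgeR and DESeq2 and Eif2ak3 with edgeR. Their median was 0.29, which became 0.36 without CCR6+ replicate 2 and 0.22 without CCR6- replicate 4. Ern1 (chr11:106394650-106487852, minus strand, mm10) encodes the kinase and ribonuclease IRE1 that splices the Xbp1 transcript. Ern1 had 543, 714 and 593 normalised counts in the CCR6+ libraries, against 467, 338, 309 and 320 in the CCR6- libraries. Every CCR6+ value lay above every CCR6- value, with CCR6- replicate 1 the nearest. The means were 616.7 ± 88.1 in CCR6+ cells and 358.6 ± 73.4 in CCR6- cells (SD, n = 3 and 4), a log2 difference of 0.79 (SE 0.21, 95% interval 0.28 to 1.31). It did not pass adjustment (limma unadjusted p = 0.00912, adjusted p = 0.43; DESeq2 adjusted p = 0.0722; edgeR adjusted p = 0.314). Without CCR6+ replicate 2, the library rich in epithelial and stromal markers, the log2 difference was 0.68. Leaving out a library cannot make separated groups overlap, so it does not test the separation. With quantile normalization the log2 difference of Ern1 was 0.49 and the groups overlapped. In bulk libraries, a difference in the share of cells of a type and one in RNA per cell cannot be told apart.

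Atf6, the membrane-bound factor that is cleaved in the Golgi, had 2389, 2514 and 2221 normalised counts in the CCR6+ libraries, against 2559, 1725, 1740 and 1262 in the CCR6- libraries. The groups overlapped through CCR6- replicate 1 alone, and the log2 difference was 0.43 (SE 0.26, limma adjusted p = 0.536). Xbp1, whose spliced transcript encodes the active factor, had a log2 difference of 0.22 (SE 0.30), and gene-level values do not separate its spliced and unspliced forms. Atf4, the factor translated when PERK is active, had 4343, 3769 and 3744 normalised counts in CCR6+ libraries, against 3592, 4205, 3970 and 1515 in CCR6- libraries. Its log2 difference was 0.35 (SE 0.39), and 0.01 without CCR6- replicate 4, the lowest library. Ddit3, which encodes the factor CHOP linked to cell death after prolonged stress, differed by 0.03 (SE 0.25). Its level was low, at 375.6 ± 63.3 normalised counts in CCR6+ and 373.9 ± 93.4 in CCR6- cells (SD). Eif2ak3, the gene of PERK, differed by 0.04 (95% interval -0.40 to 0.48).

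**Figure D2:**
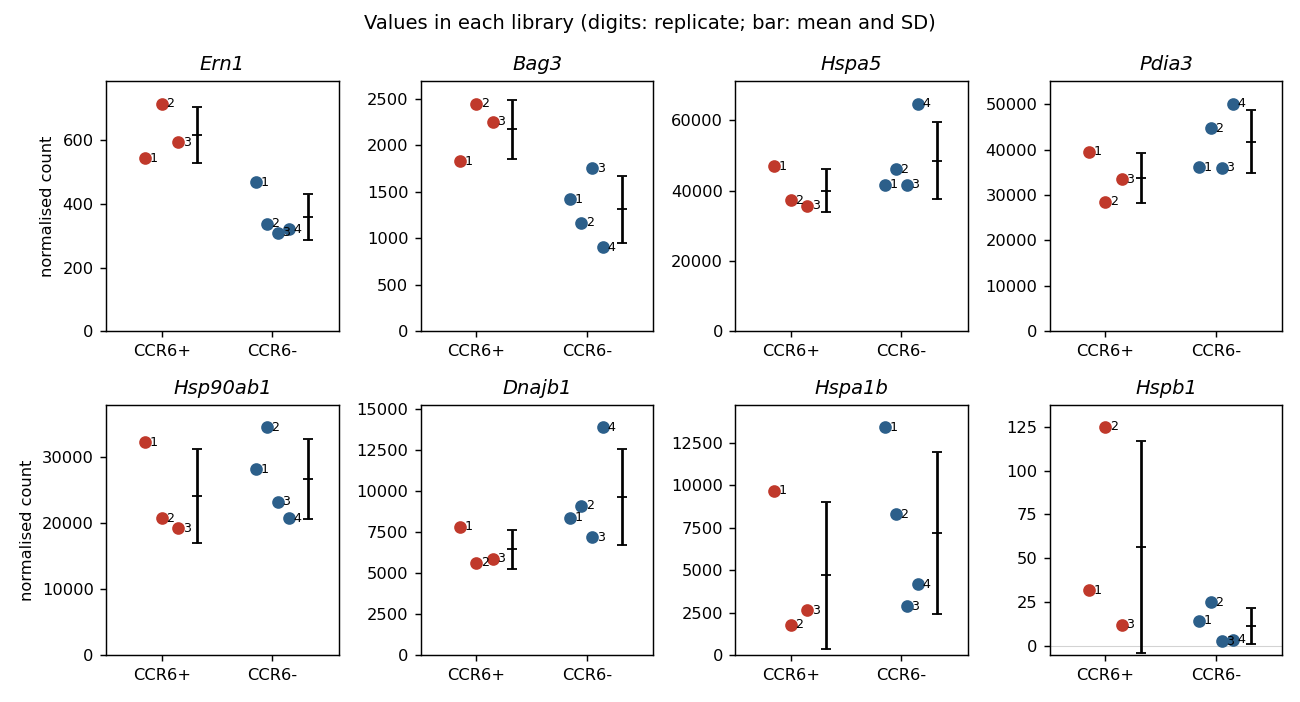
Normalised counts of 8 genes in each of the 3 CCR6+ (red) and 4 CCR6- (blue) libraries, with digits for the replicate and bars for mean and SD. The groups of Ern1 and Bag3 are separated, while those of the other 6 genes overlap.

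None of the 12 ER folding genes, among them the most abundant members, passed the test. Of these, 2 had a positive and 10 a negative difference, with a range of -0.30 to 0.04 and a median of -0.07, and with equal library totals or quantile normalization 7 were positive and 5 negative. Hspa5 (chr2:34771970-34777547, plus strand, mm10) encodes BiP, the ER member of the HSP70 family. It had 46979, 37289 and 35728 normalised counts in CCR6+ libraries, against 41691, 46066, 41697 and 64680 in CCR6- libraries. CCR6- replicate 4 was the highest, and CCR6+ replicate 1 lay among the CCR6- values. The log2 difference of Hspa5 was -0.27 (SE 0.23, limma adjusted p = 0.604, 95% interval -0.81 to 0.28) and became -0.12 without CCR6- replicate 4 and -0.14 with quantile normalization. Pdia3, a disulfide isomerase that acts on glycoproteins, had 39511, 28468 and 33449 normalised counts in CCR6+ libraries, against 36163, 44654, 35997 and 50097 in CCR6- libraries. CCR6+ replicates 2 and 3 lay below every CCR6- library and replicate 1 did not. Its log2 difference was -0.30 (SE 0.21, limma adjusted p = 0.562), -0.18 without CCR6+ replicate 2 and -0.09 with quantile normalization.

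The lectin chaperones Calr and Canx, which hold newly made glycoproteins, differed by 0.04 (SE 0.28) and -0.04 (SE 0.25). Calr was lowest in CCR6- replicate 4, at 17437, while CCR6- replicates 1 to 3 had 28535 to 34124 and CCR6+ libraries 23445 to 33491. Hsp90b1, the ER member of the HSP90 family, differed by -0.03 (SE 0.27), and 15.7% of its exonic bases overlap another annotated gene. The isomerases Pdia4 and Pdia6 differed by -0.08 (SE 0.24) and -0.30 (SE 0.27). Dnajc3, a co-chaperone of BiP, differed by -0.27 (SE 0.17, limma adjusted p = 0.542). Hyou1, an exchange factor of BiP, differed by 0.03 (SE 0.32). The remaining ER-resident genes of this role were the secreted stress protein gene Manf (-0.06), Creld2 (-0.04) and Sdf2l1 (-0.21), with SEs of 0.29 to 0.36. CCR6- replicate 4 was the highest or the lowest library for 13 of the 21 ER genes, or 61.9%, against 45.8% of all genes. The direction was not uniform within it, since it was the highest library for 8 genes and the lowest for 5.

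Promoters of several of these genes hold the ER stress element, the sequence through which ATF6 and XBP1 are known to act. The element was searched on both strands as CCAAT, 9 bases of any kind and CCACG, within 250 bases before and 50 after each start site in the RefSeq promoter table (build GRCm38.p6). Promoters of 18 ER genes were in the table. Of these, 7 held the element (38.9%), against 39 of 32851 promoters in all (0.119%). The 7 genes were Hspa5, Hsp90b1, Calr, Canx, Pdia6, Dnajc3 and Creld2, and their log2 differences lay between -0.30 and 0.04. A shorter form, ATTGG, 1 base and CCACG, was added after the first search and was found in Herpud1, as in 12 of 32851 promoters (0.0365%). Both forms were counted as exact matches only, and the remaining ER promoters held neither. The sequences below are shown because, among the members, these elements occurred in ER genes alone, though not in most of them. The element of Creld2 and a further element of Hsp90b1 are not shown. The sequences are read along the strand of the element with 10 bases on each side, and capitals mark its fixed bases.
Hspa5 (chr2:34772015-34772053, plus strand): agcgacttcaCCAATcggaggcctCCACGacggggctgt
Hsp90b1 (chr10:86705523-86705561, plus strand): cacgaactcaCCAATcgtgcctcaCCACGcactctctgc
Calr (chr8:84847065-84847103, plus strand): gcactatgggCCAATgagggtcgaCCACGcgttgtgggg
Canx (chr11:50325790-50325828, minus strand): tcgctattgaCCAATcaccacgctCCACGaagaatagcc
Pdia6 (chr12:17266481-17266519, plus strand): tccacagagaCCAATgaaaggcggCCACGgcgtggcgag
Dnajc3 (chr14:118937817-118937855, plus strand): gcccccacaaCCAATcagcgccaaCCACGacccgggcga
Herpud1 (chr8:94386367-94386397, plus strand): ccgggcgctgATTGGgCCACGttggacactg

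The 3 genes of ER-associated degradation had differences between -0.15 and 0.22. Herpud1, a membrane protein that recruits the degradation machinery, had a log2 difference of -0.15 (SE 0.31) and became 0.11 without CCR6- replicate 4. Dnajb9, an HSP40 protein of the ER, differed by 0.22 (SE 0.18, limma adjusted p = 0.602). Sel1l, the adaptor of the HRD1 ubiquitin ligase, had 5508, 6030 and 5287 normalised counts in CCR6+ libraries, against 5691, 4978, 5443 and 5701 in CCR6- libraries. It was the steadiest member, with an SD of 0.09 on the log2 scale over the 7 libraries. The log2 difference of Sel1l was 0.04, with a 95% interval of -0.31 to 0.39.

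Among the 13 cytosolic and mitochondrial genes, Bag3 was the only one whose groups did not overlap. Bag3 (chr7:128523616-128546981, plus strand, mm10) encodes a co-chaperone of HSP70 that directs damaged proteins to autophagy. Bag3 had 1827, 2448 and 2252 normalised counts in CCR6+ libraries, against 1418, 1168, 1756 and 905 in CCR6- libraries. All CCR6+ values lay above all CCR6- values, by the narrow gap between 1827 in CCR6+ replicate 1 and 1756 in CCR6- replicate 3. The means were 2176 ± 317 in CCR6+ and 1312 ± 363 in CCR6- cells (SD, n = 3 and 4). The log2 difference of 0.76 (SE 0.27, 95% interval 0.11 to 1.41) did not pass adjustment (limma unadjusted p = 0.0281, adjusted p = 0.449; DESeq2 adjusted p = 0.0929; edgeR adjusted p = 0.314). It was 0.67 without CCR6+ replicate 2 and 0.60 without CCR6- replicate 4. When library totals were made equal, the groups of Bag3 overlapped.

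Hsf1, the master regulator of the heat shock genes, had 2544, 2056 and 2532 normalised counts in CCR6+ libraries, against 3129, 2368, 2769 and 5590 in CCR6- libraries. CCR6- replicate 4 was far above the rest, and the log2 difference of -0.47 (SE 0.32) became -0.21 without it. Hspb1, the small heat shock protein HSP27, was near the limit of detection, with 37, 55 and 12 reads in CCR6+ libraries and 15, 30, 3 and 5 reads in CCR6- libraries. As normalised counts these were 31.8, 125 and 12.2 in CCR6+ libraries, against 14.2, 24.9, 2.76 and 3.38 in CCR6- libraries. The groups overlapped and the highest library was CCR6+ replicate 2. The log2 difference of Hspb1 was 2.08 (SE 1.01, limma adjusted p = 0.491), 1.21 without that library and -0.17 with quantile normalization. Hspb1 is also transcribed in epithelial and stromal cells, whose marker sums were highest in the same library, and their part in the value was not tested.

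The 4 genes of the HSP70 and HSP110 families had negative differences, and Hspa1a and Hspa1b had the widest spread of the members after Hspb1. The stress-inducible HSP70 genes Hspa1a (chr17:34969190-34972156) and Hspa1b (chr17:34956436-34959238) lie next to each other on the minus strand. Hspa1a had 3503, 651 and 741 normalised counts in CCR6+ libraries, against 4115, 2564, 681 and 1061 in CCR6- libraries. Hspa1b had 9686, 1777 and 2642 normalised counts in CCR6+ libraries, against 13424, 8316, 2863 and 4170 in CCR6- libraries. High libraries occurred in both groups, namely CCR6+ replicate 1 and CCR6- replicates 1 and 2. The highest library exceeded the lowest 6.33-fold for Hspa1a and 7.56-fold for Hspa1b. The log2 differences were -0.48 for Hspa1a (SE 0.86, limma adjusted p = 0.793) and -0.76 for Hspa1b (SE 0.77, limma adjusted p = 0.649). Without CCR6+ replicate 2 they were -0.04 and -0.26, and without CCR6+ replicate 1 they were -1.26 and -1.48. Over the removal of each of the 7 libraries they ranged between -1.26 and -0.04 for Hspa1a and between -1.48 and -0.26 for Hspa1b. The ratio of Hspa1b to Hspa1a stayed between 2.73 and 3.57 in CCR6+ and between 3.24 and 4.21 in CCR6- libraries. These values are uncertain as single genes. Of the transcript sequence of Hspa1a, 66.3% in 50-base words also occurs in transcripts of other genes, and for Hspa1b 62.3%. An annotated antisense transcript overlaps 19.0% of Hspa1a. Summed over both genes, the level was 13188, 2427 and 3383 in CCR6+ libraries, against 17539, 10880, 3543 and 5230 in CCR6- libraries.

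Hspa8, the constitutive cytosolic HSP70, differed by -0.46 (SE 0.32, limma adjusted p = 0.563), with 2345, 1376 and 1628 normalised counts in CCR6+ libraries, against 2551, 2221, 1660 and 3479 in CCR6- libraries. Hsph1, the HSP110 exchange factor, differed by -0.42 (SE 0.34, limma adjusted p = 0.595). With CCR6+ replicate 2 left out, they differed by -0.29 each. Both were low in CCR6+ replicates 2 and 3 and in CCR6- replicate 3. The cytosolic HSP90 genes had log2 differences of -0.27 for Hsp90aa1 (SE 0.41) and -0.16 for Hsp90ab1 (SE 0.28, limma adjusted p = 0.788), which became 0.06 with quantile normalization. The removal of CCR6+ replicate 2 gave -0.09 for Hsp90aa1 and -0.07 for Hsp90ab1. Hsp90ab1, per kilobase the most abundant of the 13 chaperone genes, had 32298, 20702 and 19227 normalised counts in CCR6+ libraries, against 28144, 34510, 23208 and 20712 in CCR6- libraries. CCR6+ replicate 1 was the second highest of the 7 libraries and the other CCR6+ libraries were the lowest, narrowly below CCR6- replicate 4.

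Dnajb1, an HSP40 co-chaperone of HSP70 and a classical HSF1 target, had 7833, 5641 and 5871 normalised counts in CCR6+ libraries, against 8375, 9105, 7197 and 13893 in CCR6- libraries. Only CCR6+ replicate 1 lay above a CCR6- library, replicate 3. The log2 difference of Dnajb1 was -0.55 (SE 0.28, 95% interval -1.22 to 0.11, limma adjusted p = 0.494) and became -0.36 without CCR6- replicate 4. Dnaja1, a second HSP40 gene, differed by -0.17 (SE 0.17). The mitochondrial chaperonin genes Hspd1 (HSP60) and Hspe1 (HSP10) differed by -0.30 (SE 0.21) and -0.26 (SE 0.48). Hspe1 was at 507.7, 172.9 and 238.5 normalised counts in CCR6+ libraries, against 455.9, 487.2, 224.4 and 237.6 in CCR6- libraries. Its log2 difference was 0.08 without CCR6+ replicate 2 and -1.38 with quantile normalization. In 50-base words, other genes' transcripts shared 50.1% of Hspb1, 47.5% of Hsp90aa1, 42.1% of Hspd1 and 39.4% of Hspa8. Reads of such shared stretches may have been left out or assigned to another copy, and how they were counted is not stated.

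Promoters of 9 chaperone genes, 14 promoters in all, were in the RefSeq table. The heat shock element, the site bound by HSF1, was searched on both strands as 3 units of GAA and TTC in alternation with 2 bases between units. It occurred in 4 of the 14 promoters (28.6%), those of Hsph1, Hspd1 and Hspe1, against 198 of 32851 promoters in all (0.603%). The Hsph1 site was counted in 2 overlapping promoters, 36 and 15 bases after their start sites. Only exact matches were counted, so the promoters without one, such as those of Hspa1a, Hspa1b, Dnajb1, Bag3 and Hspb1, may hold variant sites. The heat shock element occurred in 0 of the 18 ER promoters, and the ER stress element in 0 of the 14 chaperone promoters. Hspd1 and Hspe1 are transcribed in opposite directions and share 1 site. Both sites are shown as the counterpart of the ER elements, with capitals for the GAA and TTC units.
Hsph1 (chr5:149636278-149636310, minus strand): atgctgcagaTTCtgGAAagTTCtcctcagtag
Hspd1 and Hspe1 (chr1:55088049-55088086, minus strand): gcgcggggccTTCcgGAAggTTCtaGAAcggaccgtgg
The 3 genes with the element had log2 differences between -0.42 and -0.26, none of which passed adjustment.

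**Figure D3:**
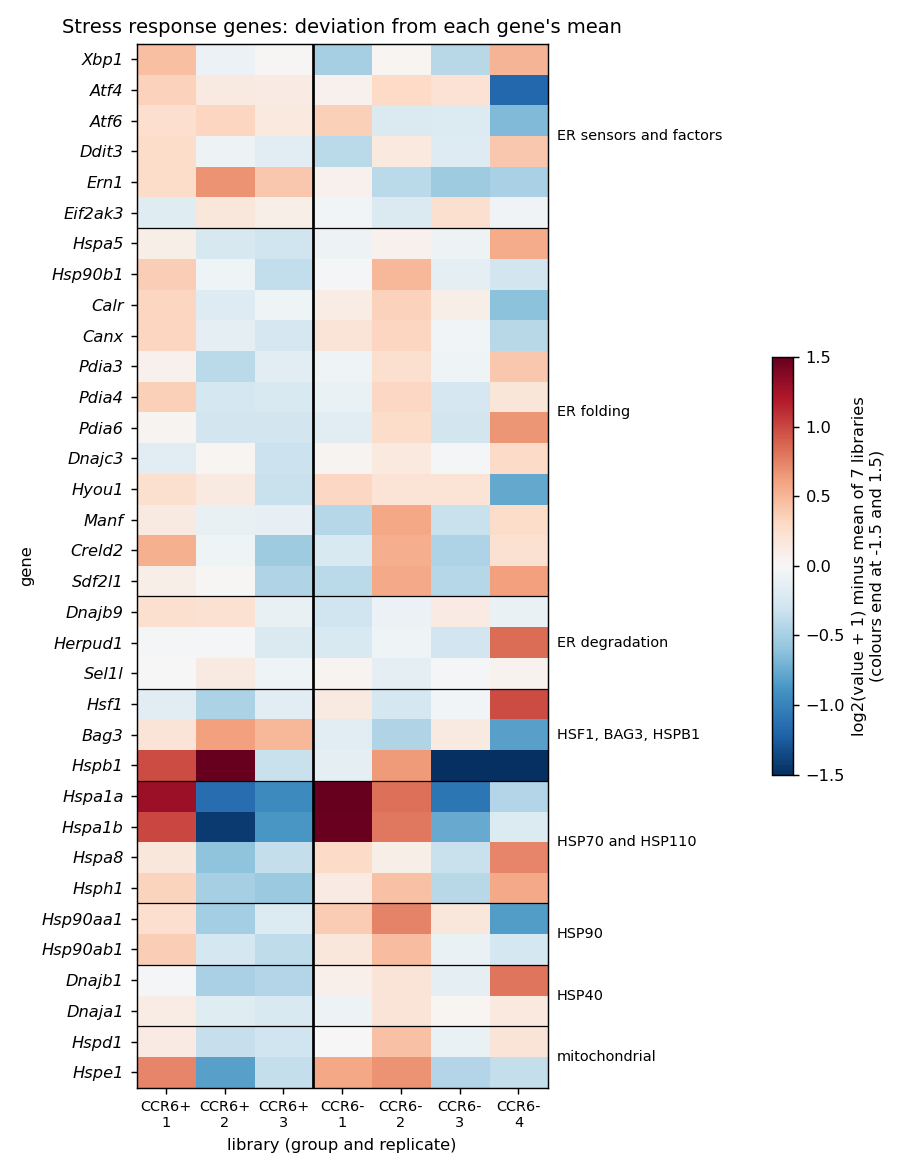
Deviation of each gene from its own mean over the 7 libraries, in log2 units, with CCR6+ libraries left of the black line and CCR6- libraries right of it, and with colours ending at -1.5 and 1.5. The HSP70 genes Hspa1a and Hspa1b are high in CCR6+ replicate 1 and CCR6- replicates 1 and 2, while CCR6- replicate 4 carries both high (Hsf1, Herpud1) and low (Atf4, Hyou1) ER and chaperone genes.

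The chaperone genes varied more between libraries than the ER genes did. The SD of log2(normalised count + 1) over the 7 libraries had a median of 0.48 for the chaperone genes and 0.33 for the ER genes, against 0.29 for the 5787 genes with a mean of at least 1000. CCR6+ replicate 2 was the highest or the lowest library for 9 of the 13 chaperone genes, or 69.2%, against 66.4% of all genes. It was the lowest for 7 chaperone genes and the highest for 2. Of all 14582 genes, it was the lowest for 3326 and the highest for 6360. Summed over the 13 chaperone genes, the normalised count was 76900, 45690 and 46351 in CCR6+ libraries, against 76930, 80147, 53693 and 65228 in CCR6- libraries. CCR6+ replicate 1 was level with CCR6- replicate 1, and the 3 lowest libraries were CCR6+ replicates 2 and 3 and CCR6- replicate 3. The same 3 libraries were those with the smallest shares of genes at 0, 2.16%, 6.89% and 7.09%, against 16.4% to 29.7% in the other 4. The ER genes summed to 265754, 204690 and 199684 in CCR6+ libraries, against 224181, 272705, 215277 and 263529 in CCR6- libraries, with the same 3 libraries lowest. The part of the share of genes at 0 in the group differences was not tested.

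When the libraries were split by their share of genes at 0, the chaperone median was negative in 1 part and positive in the other. Shares still differed within each part. This split, at 10% of genes at 0, was chosen after the data had been seen and leaves 1 library in a group, so it carries no test. With under 10% at 0, CCR6+ replicates 2 and 3 against CCR6- replicate 3, the median log2 difference was -0.22 over the chaperone genes, 10 of 13 of them negative, and 0.003 over the ER genes, against 0.11 over all genes. With at least 10% at 0, CCR6+ replicate 1 against CCR6- replicates 1, 2 and 4, it was 0.16 over the chaperone genes, 8 of 13 of them positive, and 0.23 over the ER genes, against -0.04 over all genes. The log2 difference of Hspa1b was -0.40 among the libraries with under 10% and 0.32 among those with at least 10%. That of Ern1 was 1.07 and 0.55, and that of Bag3 0.42 and 0.68. For these genes a positive sign was fixed in advance, because their groups do not overlap over the 7 libraries. Of the 7 libraries, CCR6+ replicate 1 moved the chaperone median most when left out. Without it the median was -0.52, and the groups of 8 of the 13 did not overlap, Bag3 with CCR6+ higher and 7 with CCR6+ lower, where 38.1% of all genes did not overlap. Of the 21 ER genes 3 then did not overlap, Ern1 with CCR6+ higher and Hspa5 and Pdia3 with CCR6+ lower.

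**Figure D4:**
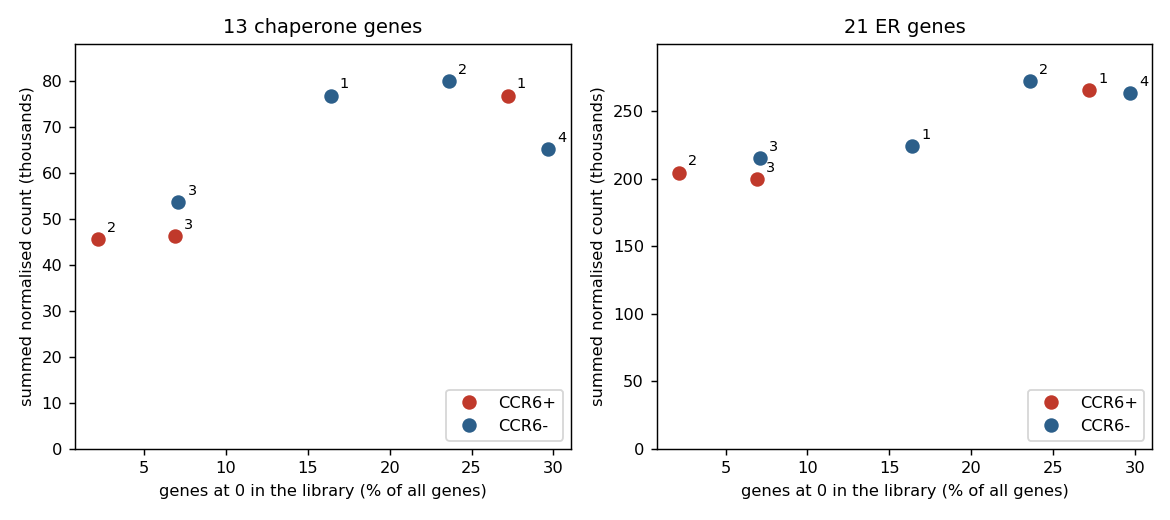
Summed normalised count, divided by 1000, of the 13 chaperone genes and of the 21 ER genes in each library, against the percentage of all genes at 0 in that library, with CCR6+ in red, CCR6- in blue and digits for the replicate. In both plots CCR6+ replicates 2 and 3 and CCR6- replicate 3 sit at the left with the lowest sums, and CCR6+ replicate 1 sits among the CCR6- libraries at the right.

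Other genes of these pathways were examined through 4 further lists, in which limma likewise called 0 genes after adjustment. Of 56 other ER folding and degradation genes, 19 had a positive and 37 a negative difference, with a median of -0.08. At an unadjusted p under 0.05, 4 were higher and 1 lower in CCR6+ cells (8.93% of the list, against 10.6% of all genes), and DESeq2 called 1 (1.79%, against 4.66% of all genes). Groups did not overlap for 4 genes with CCR6+ higher and 1 with CCR6+ lower (8.93%, against 13.5% of all genes). The smallest p values belonged to Creb3l2, a relative of ATF6 (log2 difference 1.05, SE 0.31), Sec61g, a subunit of the translocon (1.69, SE 0.50), and Wfs1, an ER membrane protein (1.76, SE 0.58). All 3 were highest in CCR6+ replicate 2, and without it their differences were 0.71, 1.11 and 1.13.

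Of 36 other ATF4 and integrated stress response genes, 18 had a positive and 18 a negative difference, and the median was 0.00. At an unadjusted p under 0.05, 1 was higher and 2 lower in CCR6+ cells (8.33%, against 10.6% of all genes), and DESeq2 called 3 (8.33%, against 4.66%). Groups did not overlap for 2 genes with CCR6+ higher and 6 with CCR6+ lower (22.2%, against 13.5% of all genes). Psat1, an enzyme of serine synthesis and a known ATF4 target, had 2089, 1883 and 1566 normalised counts in CCR6+ libraries, against 2877, 3216, 2555 and 2516 in CCR6- libraries. Its groups did not overlap, and its log2 difference was -0.60 (SE 0.18, limma unadjusted p = 0.0154, adjusted p = 0.44), or -0.62 without CCR6+ replicate 2. Sars, the seryl-tRNA synthetase, had 5883, 4684 and 5834 normalised counts in CCR6+ libraries, against 7101, 7773, 7104 and 7077 in CCR6- libraries. Its log2 difference was -0.42 (SE 0.16, limma adjusted p = 0.465). Atf3, a stress-induced partner of these factors, differed by 1.66 (SE 0.69), with CCR6+ replicate 2 at 3674 and the other CCR6+ libraries at 663 and 768, against 225 to 647 in CCR6- libraries. Without CCR6+ replicate 2 its difference was 0.88.

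Of 51 other heat shock and chaperone genes, 16 had a positive and 35 a negative difference, and the median was -0.23. At an unadjusted p under 0.05, 3 were higher and 1 lower in CCR6+ cells (7.84%, against 10.6% of all genes), and DESeq2 called 1 (1.96%, against 4.66%). Groups did not overlap for 2 genes with CCR6+ higher and 6 with CCR6+ lower (15.7%, against 13.5% of all genes). The smallest p values were those of low genes, namely Hsf4 (log2 difference 1.66, SE 0.47), Hspa12a (1.59, SE 0.49) and Hspb8 (3.26, SE 1.23). Without CCR6+ replicate 2 these differences were 1.52, 1.03 and 2.45. Hsf4 averaged 26.8 ± 7.6 normalised counts in CCR6+ and 8.47 ± 4.75 in CCR6- cells (SD). Of 25 immediate early genes, which respond to cell handling as well as to antigen, 15 had a positive and 10 a negative difference, and the median was 0.12. At an unadjusted p under 0.05, 1 was higher and 1 lower in CCR6+ cells (8%, against 10.6% of all genes), and DESeq2 called 2 (8%, against 4.66%). Groups did not overlap for 1 gene with CCR6+ higher and 1 with CCR6+ lower (8%, against 13.5% of all genes). Klf4 and Ier3 differed by 1.75 (SE 0.52) and 2.78 (SE 1.18), both highest in CCR6+ replicate 2, and by 1.12 and 1.80 without it. Klf2, a factor of quiescent and recirculating T cells, had 15298, 16944 and 16495 normalised counts in CCR6+ libraries, against 20516, 20572, 29662 and 26041 in CCR6- libraries, a log2 difference of -0.56 (SE 0.19, limma adjusted p = 0.449). The summed immediate early genes were highest in CCR6- replicate 4, at 512105, where CCR6+ libraries had 313194 to 404454 and CCR6- replicates 1 to 3 had 307220 to 342943.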

How the data were processed

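RNA of sorted cells was turned into cDNA with a SMART-Seq kit and into libraries with a KAPA kit, per the labels' protocols, with no mention of strand. For each symbol the authors deposited a signal, namely its read count divided by 1 size factor per library, as the values themselves show. They were whole multiples of 1 step per library within 0.001 reads for 100% of values, and 1 read was worth 0.677 to 2.28 units. STAR 2.5.1b, HTSeq 0.6.1p1, DESeq2 1.6.3 and mm10 are listed per the submitters' processing notes, with no role or order. The sources used here do not give annotation, filters or strand setting.

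The term normalised count means the deposited value. Genes with at least 10 in at least 3 of 7 libraries were kept, and 14582 were tested with limma 3.58.1 (R 4.3.3) on log2(value + 1), two-sided, without covariates, with Benjamini-Hochberg adjustment over all of them at 0.05. The scripts were tested on simulated data. On the recovered reads, edgeR 4.0.16 (quasi-likelihood) called 2 genes and DESeq2 1.42.0 called 679. Alternatives were a pseudocount of 8, no filter, equal library totals, quantile normalization, these count tests, the replicate number as a block, and leaving out each library. The removal of CCR6+ replicate 2 with CCR6- replicate 4, and the split at 10% of genes at 0, were added after seeing the data.

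Members, lists and markers were chosen with earlier results of these data known. Named genes are all members, the 3 smallest p values of each further list, and Ccr6 and Foxp3. The rule also takes the 2 markers of highest mean per list, which are summarised here by their sums, apart from Prdm1, Itgae and Ccr3. Values of every library are given for members that do not overlap, the 2 of highest mean in each list, Hspa1a, Hspa1b and the 3 of largest spread, and for others where a library decides the value. A description of protein ends was planned and not made, since protein sequences were not used here. Positions and lengths come from GENCODE M21 (97% of symbols matched).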

Additional observations from a re-analysis of the deposited data

Results flagged for a closer look

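Among 36 sets of 4 CCR6- values examined, 2 had 1 library far from the other 3 by Dixon's criterion, and chance gives about 5% of sets. Herpud1, of ER-associated degradation, was at 9213 normalised counts in CCR6- replicate 4, against 4208 to 4921 in the other CCR6- libraries. Hyou1, an exchange factor of BiP, was at 2233 in the same library, against 4354 to 4710 in the other CCR6- libraries. The first value was high and the second low in 1 library, and the cause was not tested.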

How the results depend on the processing

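Under all alternatives run, 0 members were called. Over all genes the calls were 0 by limma, 2 with a pseudocount of 8, 4 with quantile normalization, 2 by edgeR and 679 by DESeq2, and 0 to 1 with libraries left out (1 without CCR6+ replicate 1). Without filter the median of all genes was 0.43, and with quantile normalization it moved to -0.08, against 0.10. The count of ER genes that do not overlap was 0 with quantile normalization (13.2% of all genes), against 1, and 1 to 3 with libraries left out (3 without CCR6+ replicate 1). That of chaperone genes was 0 with equal totals (12.9% of all genes), against 1, and 1 to 8 with libraries left out (8 without CCR6+ replicate 1). Leaving libraries out can keep or raise these counts but cannot lower them. Over all genes the share was 13.5%, and with 1 library left out 16.5% to 38.1%, the last without CCR6+ replicate 1. The ER and chaperone medians moved to 0.23 and 0.16 among libraries with at least 10% of genes at 0. Of 34 members, 20 kept their sign under 15 alternatives, 10 ER and 10 chaperone genes. Not all of these alternatives test the sign separately. Without filter each member kept its difference, and the replicate block gave the same differences as leaving out CCR6- replicate 4.

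Signs turned for 14 members, whose log2 differences were small with the exception of Hspb1 and Hspe1. Equal totals gave 0.057 for Hsp90b1, 0.049 for Canx, 0.008 for Pdia4, 0.030 for Manf and 0.044 for Creld2. Quantile normalization gave 0.21 for Hsp90b1, 0.16 for Canx, 0.091 for Pdia4, -0.65 for Ddit3, 0.043 for Manf, 0.021 for Creld2, 0.057 for Hsp90ab1 and -0.17 for Hspb1, and among genes that kept their sign -1.38 for Hspe1, 0.49 for Ern1 and 0.43 for Xbp1. EdgeR gave -0.052 for Calr, -0.067 for Ddit3, -0.045 for Eif2ak3, -0.042 for Sel1l and -0.086 for Hyou1, and DESeq2 -0.001 for Ddit3 and -0.017 for Hyou1. With libraries left out, the ranges were -0.16 to 0.16 for Calr, -0.21 to 0.075 for Canx, -0.32 to 0.21 for Creld2, -0.11 to 0.21 for Ddit3, -0.045 to 0.15 for Eif2ak3, -0.27 to 0.11 for Herpud1, -0.23 to 0.15 for Hsp90b1, -0.70 to 0.077 for Hspe1, -0.28 to 0.20 for Hyou1, -0.21 to 0.13 for Manf, -0.28 to 0.080 for Pdia4 and -0.013 to 0.082 for Sel1l. The cause was not tested.

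The deviations of same-numbered libraries from their group means had correlations of -0.13, -0.11 and 0.34 over genes, and not every library correlated best with its own number. With so few libraries per mean, these correlations cannot decide whether the numbers pair the libraries, and the labels do not say. With the replicate block, which sets CCR6- replicate 4 aside because it has no partner, 0 genes were called, the ER median was 0.01 and the chaperone median -0.28. The replicate block gave -0.16 for Calr, 0.11 for Herpud1, -0.22 for Hyou1, 0.029 for Manf and 0.028 for Creld2. Hspb1 had the fewest reads of the members, at 3 to 55, and 50.1% of its 50-base words also occur in transcripts of other genes.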

Other observations

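The promoter elements were also followed beyond the members. Of the genes whose promoter held the ER stress element, 20 passed the filter, 7 of them members, and their log2 differences between CCR6+ and CCR6- cells were positive for 10 and negative for 10, with a median of 0.01. The others included Derl3 and Syvn1, both of ER-associated degradation. Of the genes with a heat shock element, 57 passed the filter, 3 of them members, and 29 had a positive and 28 a negative difference, the median being 0.01. These included the HSP90 co-chaperone gene Chordc1 and the HSP40 gene Dnajb6. Limma called 0 genes of either set after adjustment, as over all genes, where DESeq2 called 679.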
